A study of Mus musculus with 6 samples.

Results

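The Ms4a genes of myeloid cells were examined in primary mouse microglia. They were taken as the rows of the deposited tables with the symbols Ms4a4a, Ms4a4c, Ms4a6b, Ms4a6c, Ms4a6d and Ms4a7, which are 6 of the 41079 genes listed. RNA-seq was available for 3 control and 3 stimulated cultures. All 6 cultures came from brains of C57Bl/6N mice aged 1 to 3 days, in which microglia were shaken off mixed glial flasks that had been fed with 20% L-929 conditioned medium, a source of the macrophage growth factor M-CSF. Control cells were then kept in serum-free DMEM/F12. Stimulated cells received human TGFbeta, human IL34 and CX3CL1 at 100 ng/mL each. The study's methods add cholesterol, insulin-transferrin-selenium and a collagen IV coating to the stimulated group, which the labels do not name, so the share of each component in a difference cannot be told apart. The comparison asks how this defined medium alters the transcripts of cultured microglia.

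MS4A proteins are tetraspan membrane proteins. The family includes CD20 (MS4A1) of B cells and the beta chain of the high-affinity IgE receptor (MS4A2), whereas the genes examined here are transcribed in macrophages and microglia. In the human genome, variation in the MS4A cluster has been linked to the risk of Alzheimer's disease and to the level of soluble TREM2, and MS4A4A associates in macrophages with the beta-glucan receptor dectin-1.

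The control and stimulated libraries held between 20628148 and 27261839 counts in genes. All 10 tested microglia signature genes, among them Tmem119, a surface marker of homeostatic microglia, were higher in the stimulated libraries (median log2 fold change 1.77), and pan-myeloid genes were abundant in every library, with summed levels from 7353 to 9758 CPM, where CPM is the count scaled by library depth. Of the 8 pan-myeloid genes tested, 3 rose and 3 fell. Markers of B cells, mast cells, neutrophil progenitors and T cells were at or near 0. Summed CPM reached at most 0.95 for 4 B cell markers, 0.13 for 4 mast cell and basophil markers and 0.43 for 3 neutrophil progenitor markers, and 4 T cell markers were at 0 counts in all libraries. The 6 monocyte markers summed to 19.6 to 25.9 CPM in control and 11.6 to 15.2 CPM in stimulated libraries. Nearly all of this was Hp, which encodes haptoglobin, with 18.9 to 24.6 and 11.03 to 13.01 CPM and a log2 fold change of -0.90 ± 0.13 (SE, adjusted p = 4.8e-04, edgeR). Of the other monocyte markers, Ccr2 and Ly6c2 stayed at or under 1.56 CPM, Chil3 was at 0, and Plac8 reached 2.56 CPM in stimulated 1. Non-myeloid marker lists did not stand at 0. The summed level of 4 astrocyte markers ranged from 22.2 to 25.0 CPM in control and from 10.8 to 12.4 CPM in stimulated libraries. Of these, Aldh1l1 fell (-1.83 ± 0.13), whereas Gfap, Aqp4 and Slc1a2 did not pass the test. The sum of 5 fibroblast markers was 32.3 to 45.9 CPM in control, 44.5 CPM in stimulated 1 and 28.4 CPM in stimulated 2, while stimulated 3 stood apart at 148 CPM. Without stimulated 3 the same number of Ms4a genes, 3, were called lower. The sum of 4 neuron markers was 3.07 to 4.59 CPM in control and 5.30 to 6.29 CPM in stimulated libraries. For 4 oligodendrocyte markers it was 96.8 to 101.9 CPM in control and 114.2 to 142.5 CPM in stimulated libraries. In each of these lists 1 gene was called higher and 3 did not pass the test. The part of the non-myeloid markers in the results was not tested. In bulk RNA, fewer cells of a type and less RNA per cell cannot be told apart.

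Of the 6 Ms4a genes, 3 fell in the stimulated cultures and none rose. Ms4a4c fell the furthest, to 0.153 of its control level, and Ms4a7 and Ms4a6b each fell to about 0.49 to 0.50 of theirs. Ms4a6d, Ms4a6c and Ms4a4a did not pass the test (edgeR quasi-likelihood test, Benjamini-Hochberg adjusted p under 0.05 over 14618 genes). Among all genes tested, 15.2% were called lower and 14.7% higher, and the median of the log2 fold changes was 0.01, so 3 of 6 lower stands beside a background of 15.2%. All 6 genes passed the filter on low counts. The plot of CPM by library shows both behaviours side by side.

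**Figure D1:**
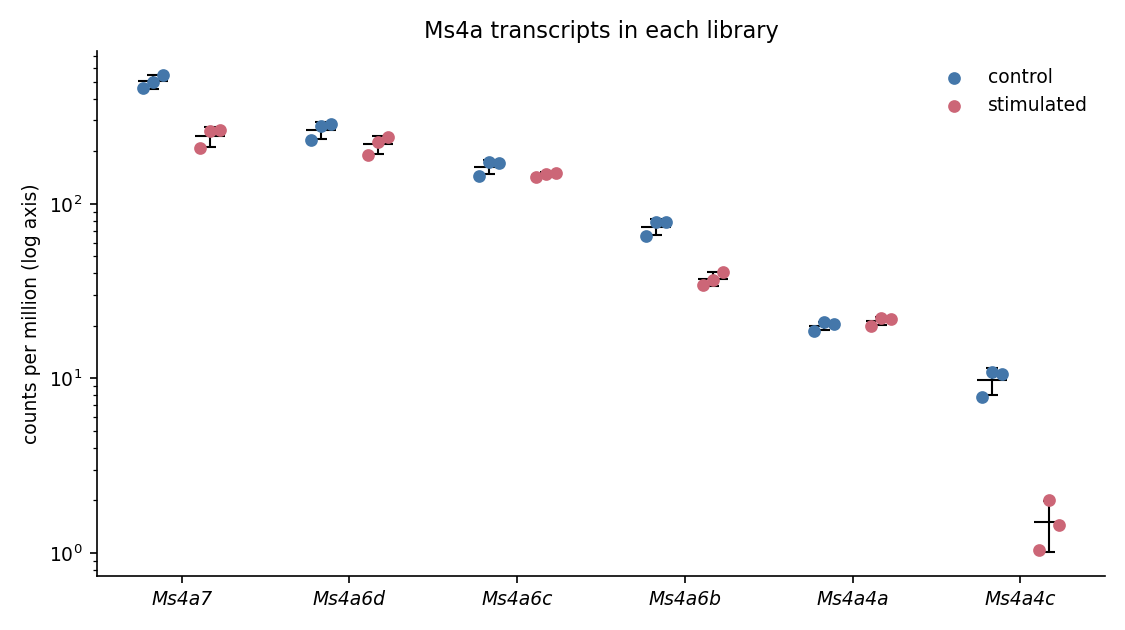
Level of each Ms4a gene in each library, in CPM on a log axis. Points are the 3 control and 3 stimulated libraries, horizontal marks the group means and bars the SD. Stimulated points lie below all control points for Ms4a7, Ms4a6b and Ms4a4c, and the groups overlap for Ms4a6d, Ms4a6c and Ms4a4a.

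The 6 genes lie within 283.8 kb of chromosome 19 (GRCm39, the build the authors mapped to, with GENCODE M39 gene models). Ms4a7 (chr19:11298403-11313510, minus strand) comes first in coordinate order. Ms4a4a (chr19:11352823-11370154), Ms4a4c (chr19:11382131-11404610), Ms4a6c (chr19:11446718-11462204) and Ms4a6b (chr19:11493876-11508620) follow on the plus strand, and Ms4a6d (chr19:11563968-11582213) closes the group on the minus strand. The genes that fell are thus not contiguous. Ms4a4a lies between Ms4a7 and Ms4a4c, and Ms4a6c between Ms4a4c and Ms4a6b.

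The encoded proteins are of similar length, 217 residues for Ms4a6c to 247 for Ms4a6d. The most alike of the 6 by sequence are the Ms4a6 proteins, where Ms4a6b shares 72.4% of aligned residues with Ms4a6c and 71.3% with Ms4a6d. Ms4a6b fell while its 2 closest relatives did not pass the test. Ms4a7 is the most distant, at 23.2% to 33.8% identity to the others, and its change was closest to that of Ms4a6b (33.5% identity). No 100-base stretch of spliced sequence of Ms4a4a, Ms4a6b, Ms4a6c, Ms4a6d or Ms4a7 occurred in another Ms4a gene, and for Ms4a4c 1.47% of such stretches occurred in Ms4a4b.

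The 250 bases before the start of the canonical annotated transcript of each gene were read from GRCm39 and searched on both strands for 5 motifs. Starts of other transcripts were not searched. For Ms4a4c the start used (11385017) lies inside the gene span, which begins at 11382131. That of Ms4a6b (11495923) lies inside a span that begins at 11493876. The core of the interferon-stimulated response element, GAAANNGAA, to which interferon regulatory factors bind, occurred in the promoters of Ms4a6b, Ms4a6c and Ms4a7, and in 7.56% of 21738 promoters of protein-coding genes. These promoters are shown because they hold the match, in capitals. That of Ms4a4c is shown because the gene with the largest fall holds none in the window searched.

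Ms4a6b (chr19:11495673-11495922, plus strand): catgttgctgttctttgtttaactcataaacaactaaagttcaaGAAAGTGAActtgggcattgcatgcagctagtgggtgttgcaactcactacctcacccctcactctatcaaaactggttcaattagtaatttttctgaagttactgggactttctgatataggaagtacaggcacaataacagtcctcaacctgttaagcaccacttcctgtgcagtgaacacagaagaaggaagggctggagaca
Ms4a6c (chr19:11446468-11446717, plus strand): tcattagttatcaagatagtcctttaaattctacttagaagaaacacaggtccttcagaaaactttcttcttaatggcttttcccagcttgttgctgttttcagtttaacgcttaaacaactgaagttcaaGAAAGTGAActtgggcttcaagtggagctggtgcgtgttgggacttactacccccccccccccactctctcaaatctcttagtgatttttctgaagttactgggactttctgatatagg
Ms4a7 (chr19:11313509-11313758, minus strand): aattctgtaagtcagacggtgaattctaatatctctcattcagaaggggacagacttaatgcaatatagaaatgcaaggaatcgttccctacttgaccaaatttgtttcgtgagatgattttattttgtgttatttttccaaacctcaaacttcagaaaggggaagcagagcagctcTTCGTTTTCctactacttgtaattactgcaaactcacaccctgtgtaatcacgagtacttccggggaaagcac
Ms4a4c (chr19:11384767-11385016, plus strand): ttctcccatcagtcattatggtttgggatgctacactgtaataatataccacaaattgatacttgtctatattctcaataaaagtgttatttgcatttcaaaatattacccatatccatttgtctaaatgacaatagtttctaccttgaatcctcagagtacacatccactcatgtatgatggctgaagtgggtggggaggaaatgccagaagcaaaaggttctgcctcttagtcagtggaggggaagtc

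The match lies 206 to 198 bases before the start in Ms4a6b, 119 to 111 bases before it in Ms4a6c, and 73 to 65 bases before it in Ms4a7, where it is read on the opposite strand. The Ms4a6b and Ms4a6c promoters carry the same 9 letters, GAAAGTGAA. They are also alike around it, with 139 identical of 157 aligned positions in a local alignment that holds 12 gap bases besides. A shared run of 35 bases begins 118 bases before the start of Ms4a6b and 35 bases before that of Ms4a6c. Of these 2 genes with alike promoters, Ms4a6b fell and Ms4a6c did not pass the test, where the value of Ms4a6c is uncertain for the reason given below. None of the 6 promoters held the gamma-activated site TTCNNNGAA (7.70% of all promoters), the PU.1 motif GAGGAAGT (2.08%), the AP-1 motif TGANTCA (6.18%) or the SMAD-binding motif CAGACA (15.6%). A match describes letters only, and no match says only that these letters are not in this window.

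Ms4a7 encodes a membrane protein used as a marker of macrophages at the brain's borders and of bone marrow-derived macrophages in the brain. Its level was 457, 499 and 549 CPM in the control libraries and 208, 260 and 266 CPM in the stimulated libraries. Every stimulated library lay below every control library. The mean fell from 502 ± 46.0 to 245 ± 31.9 CPM (mean ± SD, n = 3), and the fitted log2 fold change was -1.04 ± 0.12 (SE, adjusted p = 1.1e-04, edgeR). Among all tested genes, 5.22% had a lower value. These values rest on 4391 to 15003 counts per library. On the deposited FPKM scale, which divides by gene length, Ms4a7 stood at rank 177 of all genes by mean control level and at rank 392 by mean stimulated level.

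Ms4a6b encodes a protein described in T cells, where it takes part in costimulation. The control libraries had 65.5, 78.4 and 78.2 CPM and the stimulated ones 34.1, 36.8 and 40.6 CPM, with no overlap. The mean fell from 74.0 ± 7.37 to 37.2 ± 3.27 CPM (mean ± SD, n = 3), and the fitted log2 fold change was -0.99 ± 0.11 (SE, adjusted p = 7.0e-05, edgeR). The log2 ratio of Ms4a6b to Ms4a7 counts was -2.76 ± 0.08 in control and -2.71 ± 0.11 in stimulated libraries (SD, n = 3 each), a difference of 0.05, and the groups overlapped (exact two-sided permutation p = 0.7, where 3 against 3 libraries cannot give less than 0.1).

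Ms4a4c, whose transcript is known to be induced by interferon in myeloid cells, had the lowest level per length of the 6 genes and changed most. Its counts were 179, 268 and 288 in control and 22, 47 and 30 in stimulated cultures, which is 7.83, 10.9 and 10.5 CPM against 1.04, 2.00 and 1.45 CPM. Every control library was above every stimulated library. The mean went down 6.52-fold, from 9.77 ± 1.69 to 1.5 ± 0.48 CPM (mean ± SD, n = 3). The log2 fold change was -2.69 ± 0.24 (SE, adjusted p = 2.2e-05, edgeR), and 0.71% of all tested genes had a lower value. On the log2(FPKM + 1) scale, where low genes are compressed, the difference was -1.62.

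Ms4a6d encodes a membrane protein reported to act with the complement receptor Vsig4 in restraining the NLRP3 inflammasome. Control libraries had 231, 279 and 286 CPM and stimulated libraries 191, 227 and 241 CPM. The ranges overlapped, since control 1 was below stimulated 3. Means were 265 ± 29.6 and 219 ± 26.1 CPM (mean ± SD, n = 3), and the fitted log2 fold change was -0.27 ± 0.12 (SE, 95% interval -0.53 to -0.01). By edgeR the unadjusted p was 0.042 and the adjusted p 0.11. On the deposited FPKM scale the groups did not overlap, at 177, 214 and 205 against 134, 147 and 167 FPKM.

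Ms4a6c had 145, 174 and 171 CPM in control and 142, 148 and 151 CPM in stimulated libraries, with overlap. In deposited FPKM the groups did not overlap, at 25.7, 30.9 and 28.5 against 23.2, 22.4 and 24.2 FPKM. Means were 163 ± 15.7 and 147 ± 4.66 CPM (mean ± SD, n = 3), and the fitted log2 fold change was -0.15 ± 0.09 (SE, 95% interval -0.36 to 0.06, adjusted p = 0.27, edgeR). This value is uncertain. Of 4899 exonic bases of Ms4a6c, 3751 are also exonic in the antisense gene BE692007, whose counts were 34.6% to 43.1% of those of Ms4a6c in each library, and the strand setting of the counting is not given in the sources used here. With the BE692007 counts taken off, the log2 fold change of Ms4a6c was -0.22 (adjusted p = 0.15, edgeR), an alternative chosen after seeing the data. It assumes that each BE692007 read was also counted in Ms4a6c, which the sources used here do not state. BE692007 itself had a log2 fold change of -0.04 ± 0.10.

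Ms4a4a, the partner of dectin-1 in macrophages, had 18.7, 20.9 and 20.4 CPM in control and 19.9, 22.2 and 21.9 CPM in stimulated libraries. One stimulated library lay among the control libraries and the other two above them. Means were 20.0 ± 1.18 and 21.3 ± 1.22 CPM (mean ± SD, n = 3), and the fitted log2 fold change was 0.09 ± 0.10 (SE, adjusted p = 0.54, edgeR) with a 95% interval from -0.13 to 0.31. That interval does not hold a change of the size seen in Ms4a7, Ms4a6b or Ms4a4c.

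The calls for Ms4a6d and Ms4a6c depended on how libraries were scaled. With library size alone, Ms4a6d had a log2 fold change of -0.40 (adjusted p = 0.014, edgeR) and Ms4a6c of -0.28 (adjusted p = 0.048, edgeR), and both were called lower. That scaling moved the median of all tested genes to -0.12, and relative to that median the values were -0.28 and -0.16, as under the scaling reported here. The share of higher genes among all calls was then 32.3%, against 49.1%. Ctsd, which encodes the lysosomal protease cathepsin D, took 2.06% to 2.37% of all counts in control and 5.04% to 7.11% in stimulated libraries. Its part in the shift was not tested. Ms4a4a, Ms4a4c, Ms4a6b and Ms4a7 kept their calls under all 14 alternatives of normalization, filter, tool, unit and left-out library, while the sign of Ms4a4a turned, without passing the test, under library size alone (-0.04) and on the 3 FPKM scales (-0.04 to -0.05).

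**Figure D2:**
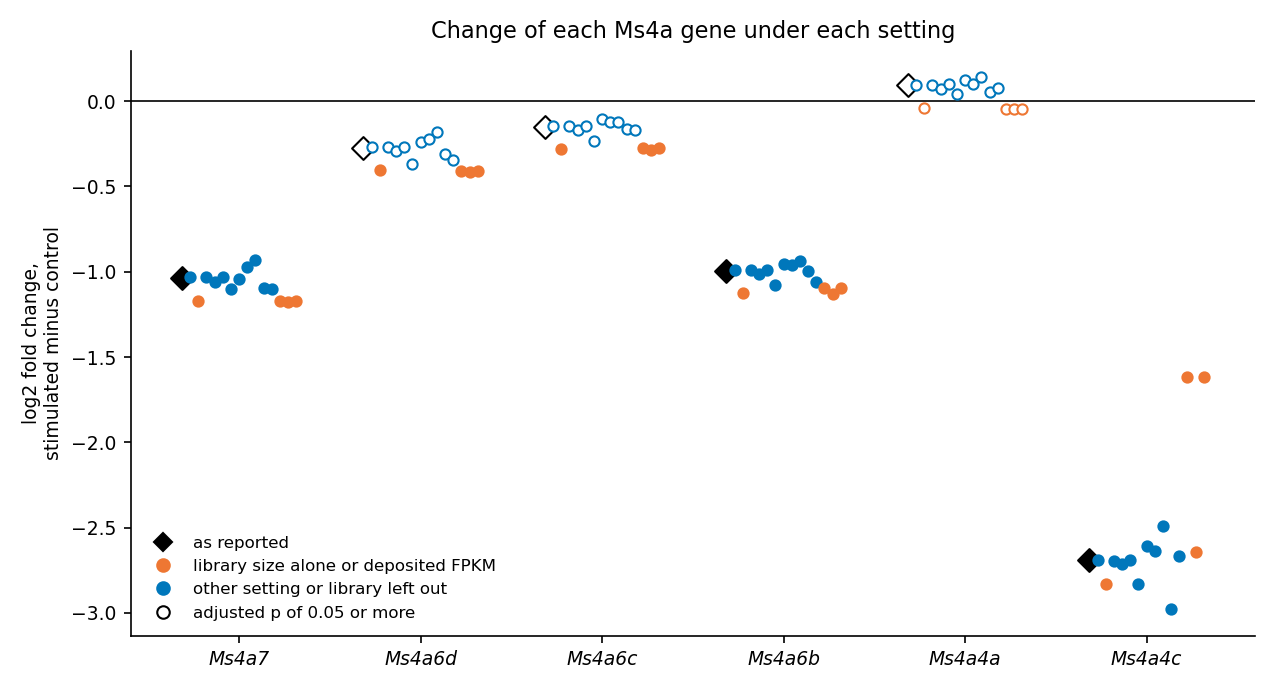
Log2 fold change of each Ms4a gene as reported (diamonds) and under each of 14 alternatives (circles), with filled symbols for an adjusted p under 0.05 and open symbols otherwise. Orange circles use library size alone or the deposited FPKM. Ms4a7, Ms4a6b and Ms4a4c are filled throughout, and Ms4a6d and Ms4a6c only for the orange circles. The alternative with the replicate number as a block is not drawn and is described in the closing section.

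The summed level of the 6 genes was 535, 615 and 608 FPKM in control and 306, 337 and 373 FPKM in stimulated libraries. All stimulated sums lay below all control sums, with means of 586 ± 44.2 and 339 ± 33.6 FPKM (SD, n = 3 each) and an exact two-sided permutation p of 0.1, the smallest that 3 against 3 libraries can give. The stimulated sum was 0.578 of the control sum in FPKM and 0.649 of it in CPM, so its size depended on the scaling. Shares of the sum within a library do not depend on scaling between libraries. Within that sum Ms4a7 made up 50.6% ± 1.32 in control and 38.7% ± 0.93 in stimulated libraries, and Ms4a6d 33.9% ± 0.90 and 44.1% ± 0.48. The share of Ms4a6b went from 7.60% ± 0.23 to 6.01% ± 0.30 and that of Ms4a4c from 0.61% ± 0.06 to 0.15% ± 0.04. Ms4a6c went from 4.84% ± 0.18 to 6.90% ± 0.59 and Ms4a4a from 2.44% ± 0.13 to 4.09% ± 0.26. For each of the 6 shares the groups did not overlap, and each had the smallest exact permutation p of 0.1, also after adjustment over the 6. The shares add up to 100% and are not separate observations. Over all tested genes, the CPM of the groups did not overlap in 22.5% with stimulated below and in 21.4% with stimulated above control. Those percentages are of single genes and are no background for the shares, which move when any of the 6 genes changes.

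**Figure D3:**
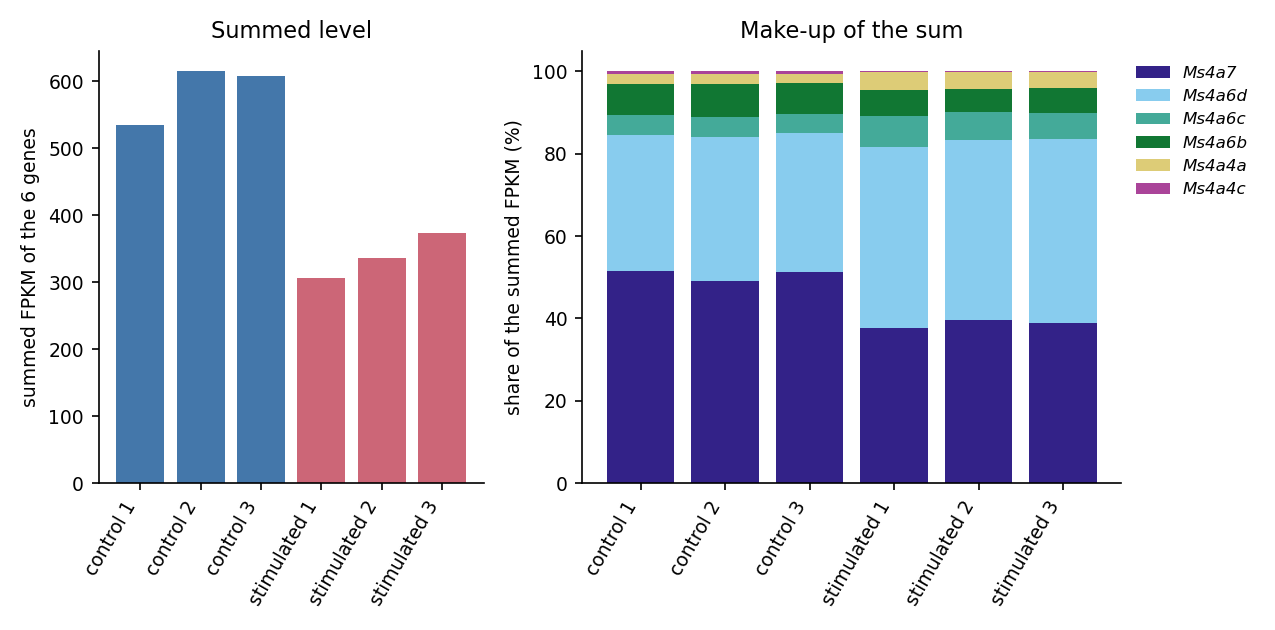
Left, summed FPKM of the 6 Ms4a genes in each library. Right, the share of each gene in that sum in percent. The sum is between 535 and 615 FPKM in control and between 306 and 373 FPKM in stimulated libraries, and Ms4a6d takes the largest share in the stimulated libraries, where Ms4a7 takes it in the control libraries.

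Counted pair by pair, 13 of the 15 log2 ratios between 2 of the genes did not overlap between groups (exact permutation p = 0.1 each, 0.12 after adjustment over 15). The 22.5% and 21.4% given above are of single genes and are no background for ratios, which can separate when either gene changes. No such share was computed for ratios of other genes. The 15 ratios share the same 6 genes. The exceptions were the ratio of Ms4a6b to Ms4a7 given above and that of Ms4a6c to Ms4a6d, which was -0.70 ± 0.04 in control and -0.57 ± 0.13 in stimulated libraries (SD, n = 3 each, exact permutation p = 0.2). Ms4a6d relative to Ms4a7 went from -0.92 ± 0.08 to -0.15 ± 0.04.

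The order of the levels per length depended on the gene length used. In deposited FPKM the control order was Ms4a7 (297 ± 18.4), Ms4a6d (199 ± 19.5), Ms4a6b (44.6 ± 4.09), Ms4a6c (28.4 ± 2.61), Ms4a4a (14.3 ± 0.90) and Ms4a4c (3.60 ± 0.60), and no neighbours in that order overlapped between libraries. In stimulated libraries it was Ms4a6d (149 ± 16.3), Ms4a7 (131 ± 14.8), Ms4a6c (23.2 ± 0.91), Ms4a6b (20.3 ± 1.90), Ms4a4a (13.8 ± 0.51) and Ms4a4c (0.50 ± 0.14), where the first pair and the second pair overlapped. The lengths behind the FPKM differ from the annotation. Relative to Ms4a6d, the table implies a length of 1.27 for Ms4a7 and 1.25 for Ms4a6b, against 2.57 and 2.60 for their annotated exons. With annotated lengths, an alternative added after seeing the data, Ms4a6d was first in both groups, at 153 ± 17.1 and 127 ± 15.0 CPM per kilobase, ahead of Ms4a7 at 113 ± 10.3 and 54.9 ± 7.17 (SD, n = 3). Ms4a4c was last in both groups with either length.

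Across the 6 libraries the pattern of each gene was set beside the other tested genes with a mean of at least 5 CPM. Predicted genes with Gm symbols and RIKEN clone names were left out. Likeness was measured by the root mean square difference of centred log2 CPM. This is a description that follows mostly from the difference between the groups. Closest to Ms4a7 were Mthfd2 (0.04), a mitochondrial enzyme of folate metabolism, Cd200r1 (0.05), the inhibitory receptor for CD200 on myeloid cells, and Psmd10 (0.06). Closest to Ms4a6b were Zfp119b (0.05), Nfkbia (0.05), the inhibitor of NF-kappaB, and Snx2 (0.06). Ms4a4c had no close match, with Fabp4 (0.19), a fatty acid binding protein, Ccl4 (0.21), a chemokine, and Cd69 (0.25) as the nearest. Ms4a6d was nearest to Gch1, Snu13 and Cxcl16 (0.03 to 0.04), Ms4a6c to Psmd5, Metap1 and Rnf135 (0.02 to 0.04), and Ms4a4a to Atp1b3, Ormdl1 and Chic2 (0.02 to 0.03). Between 2 of the 6 genes the smallest difference was that of Ms4a6b and Ms4a7 (0.08) and the largest that of Ms4a4a and Ms4a4c (1.42).

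The rest of the family was mostly silent. Of 15 other Ms4a symbols listed, 14 did not pass the filter on low counts, 8 of them had 0 counts in all libraries, and none of the 14 exceeded 16 counts in any library. They include Ms4a1, which encodes CD20, with 0 to 5 counts, and Ms4a2 with 0 to 2. The other one, Ms4a14, lies next to Ms4a7 and fell with it, from 68.2, 64.1 and 64.4 CPM to 38.4, 27.3 and 26.3 CPM, a log2 fold change of -1.10 ± 0.14 (SE, adjusted p = 2.2e-04, edgeR). Tmem176a and Tmem176b, members of the same superfamily on chromosome 6 that encode intracellular cation channels, fell as well. Tmem176b went from 603, 693 and 726 CPM to 220, 305 and 273 CPM, a log2 fold change of -1.34 ± 0.13 (SE, adjusted p = 3.9e-05, edgeR), and Tmem176a had -1.14 ± 0.14 (SE). These 2 genes share 1084 exonic bases on opposite strands. Their counts may not be fully separate, since the strand setting of the counting is not given in the sources used here.

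Around the cluster, 35 listed genes with other than Ms4a names lie between the outermost of the 6 genes or within 500 kb of either end, and 12 of them were tested. Of these 1 fell, 3 rose and 8 did not pass the test, and the median of their log2 fold changes was 0.01, beside 0.01 over all genes. AW112010, an interferon-inducible transcript on the Ms4a14 side, fell by 1.69 on the log2 scale (SE 0.21, adjusted p = 1.8e-04, edgeR), from 26.1 to 35.6 CPM in control to 6.30 to 11.2 CPM in stimulated libraries. Tmem132a (0.61 ± 0.09), Stx3 (0.39 ± 0.10), which encodes a membrane fusion protein, and Slc15a3 (0.31 ± 0.09), a lysosomal transporter, rose (log2 fold change ± SE). The call of Stx3 was lost without control 1 (adjusted p = 0.069), control 2 (0.060) or stimulated 3 (0.075), and that of Slc15a3 without any library other than stimulated 1 (0.064 to 0.15, edgeR). Tmem109 (-0.24 ± 0.12) did not pass the test with all libraries and did without stimulated 2 (-0.38). In the plot along the gene order, those of the 6 genes that fell alternate with those that did not pass. Ms4a14, which also fell, stands beside Ms4a7.

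**Figure D4:**
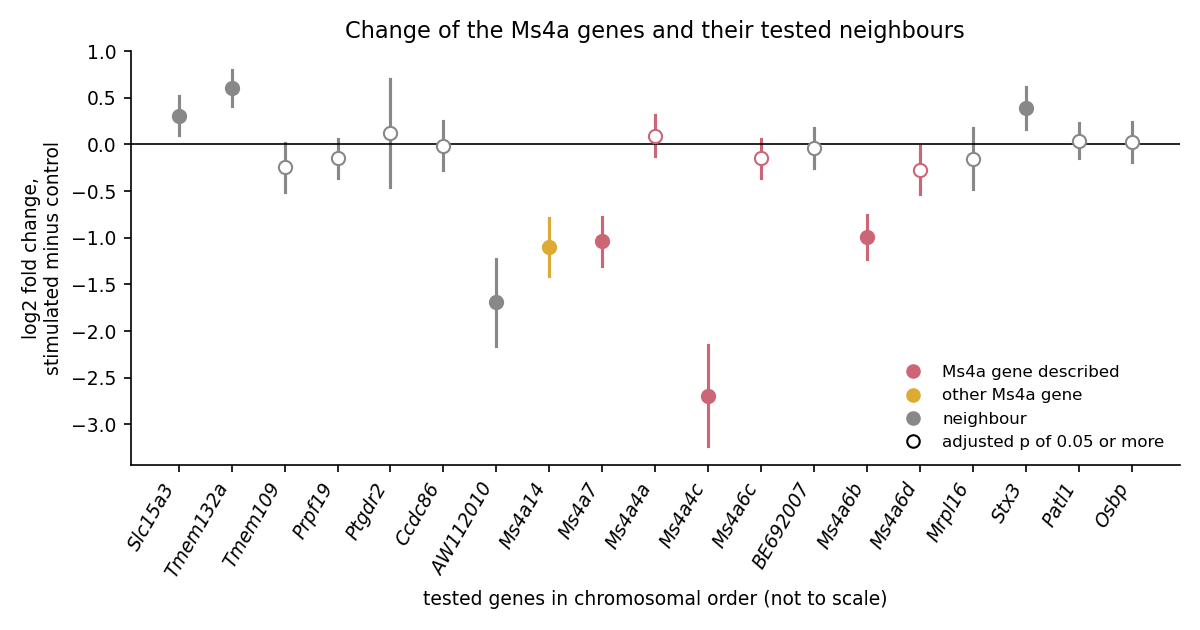
Log2 fold change, stimulated minus control, with its 95% interval, for the Ms4a genes (red), Ms4a14 (yellow) and the 12 tested neighbours (grey) in chromosomal order, not to scale. Filled points have an adjusted p under 0.05. The Ms4a genes that fell are interleaved with those that did not pass the test, and Ms4a4c has the lowest value of the region at -2.69.

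Genes known to work with MS4A proteins or in the TREM2 pathway moved in both directions. Of 9 listed, 8 were tested, 4 rose and 2 fell, and the median log2 fold change was 0.61. Clec7a, which encodes dectin-1, the partner of Ms4a4a, fell from 1134, 1166 and 1338 CPM to 553, 576 and 562 CPM, a log2 fold change of -1.11 ± 0.10 (SE, adjusted p = 2.1e-05, edgeR). Its kinase Syk fell by 0.82 on the log2 scale (SE 0.08). Trem2, the microglial lipid receptor, rose by 0.73 ± 0.18, with 575, 613 and 681 CPM in control and 728, 1288 and 1079 CPM in stimulated libraries, and Adam10, a sheddase of TREM2, rose by 0.94 ± 0.09. Plcg2 and Inpp5d, which act downstream of such receptors, rose by 0.75 ± 0.08 and 0.97 ± 0.09. The call of Trem2 was lost without control 1 or control 2 (adjusted p = 0.063 and 0.067, edgeR). Tyrobp, the TREM2 adaptor, and the sheddase Adam17 had 0.49 ± 0.25 and -0.17 ± 0.08 and did not pass the test, although Tyrobp was called without stimulated 1 (0.73, adjusted p = 0.0020, edgeR). Vsig4, the partner of Ms4a6d, was not tested and had at most 0.62 CPM.

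Ms4a7 shares its use as a border macrophage marker with a list of 12 genes, of which 9 were tested. Of these 2 fell, 4 rose and 3 did not pass the test, and the median was 0.49 on the log2 scale. Mrc1, the mannose receptor, fell by 2.40 on the log2 scale (SE 0.10) and Clec10a, with 16 to 35 counts in control and 0 to 4 in stimulated libraries, by 3.63 (SE 0.73), whereas F13a1 (1.60 ± 0.12), Colec12 (1.01 ± 0.09), Siglec1 (0.59 ± 0.16) and Pf4 (0.53 ± 0.17) rose. The call of Siglec1 was lost without control 2, control 3 or stimulated 3 (adjusted p = 0.060 to 0.094, edgeR), and that of Pf4 without any library other than stimulated 1 (0.064 to 0.16). Cd163 and Lyve1 were near 0, at no more than 0.52 CPM. The 12 genes together summed to 3250 to 3801 CPM in control and 3705 to 4208 CPM in stimulated libraries. The markers thus moved in both directions.

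All 13 tested interferon response genes fell (median log2 fold change -1.92), for example Ifit3 (-1.92 ± 0.21) and Irf7 (-1.77 ± 0.13), the latter a transcription factor that amplifies the interferon response. With any 1 library left out, 12 or 13 of them were called lower. The value of Ms4a4c lay below that of each of the 13, a difference that was not tested. The lowest of the 13 was Rsad2 (-2.60). Ms4a7 and Ms4a6b lay inside the range of the 13 values, and Ms4a6d, Ms4a6c and Ms4a4a above it. Of the 3 genes with the interferon element in their promoters, 2 fell and Ms4a6c did not pass the test, and Ms4a4c fell with no match in its window. A link between the element and the changes was not tested.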

How the data were processed

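Primary microglia were profiled by RNA-seq in 3 control and 3 stimulated cultures, described in the study as biological replicates. Per the submitters' processing notes, reads were mapped to mm39 with HISAT2 and counted with featureCounts. Versions, annotation, strand setting and treatment of multi-mapping reads are not given in the sources used here, and they decide how reads of overlapping genes were assigned. The authors deposited raw counts per gene, without normalization, and FPKM values, which are counts divided by gene length and library size. Both tables list 41079 genes, and no column of another sample was present.

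Differences in counts were tested with edgeR 4.0.16 under R 4.3.3 (filterByExpr, TMM factors, glmQLFit and glmQLFTest, no covariate, Benjamini-Hochberg adjustment over 14618 genes, threshold 0.05). CPM are scaled with TMM factors. Levels and shares per length use the deposited FPKM and exact permutation tests over libraries. Totals of 20628148 to 27261839 counts and a coefficient of variation between replicates of 0.13 set the precision. Alternatives were DESeq2 1.42.0, normalization by library size alone or by relative log expression, 2 other filters, a replicate block, each library left out, and limma 3.58.1 on log2(FPKM + 1), log2(FPKM + 0.1) and log2(FPKM + 1) of genes averaging 1 FPKM or more. The scripts were tested on simulated counts. Positions, promoters and protein comparisons come from GENCODE M39 on GRCm39, which held 35087 of the symbols.

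Named were the 6 genes, the other Ms4a and Tmem176 genes, cluster neighbours, the marker and pathway lists, and the 3 genes with the most similar pattern to each. Ctsd falls outside this rule and was named after its values were seen. The 6 genes and the lists were chosen with earlier results of these data known. The values of 2 genes in the lists are not reported here.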

Additional observations from a re-analysis of the deposited data

How the results depend on the processing

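Calls of Ms4a genes held for every library left out, with 3 lower and 0 higher each time. The lower count was 5 with library size alone and in the 3 limma fits on FPKM, which add Ms4a6c and Ms4a6d, and their median over all genes lay at -0.12, -0.09, -0.13 and -0.13. Library size alone called 3168 of all 14618 genes lower, against 2218 as reported. The limma fits called 3267 and 3262 of 14618 and 2962 of 11572 lower. Over all genes the higher count dropped to 1176 in the limma fit of genes with a mean of 1 FPKM or more. With library size alone and in the 3 limma fits, 3 cluster neighbours were called lower and 1 higher, and 2 border macrophage markers were called higher. Requiring 10 counts in every library, or a mean of 1 FPKM, left 1 border macrophage marker called lower, since Clec10a was no longer tested. Without AW112010 no neighbour (0) was lower, and without BE692007 the counts were as reported; both were chosen after seeing the data.

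Leaving out 1 library at a time gave 1 to 2 lower and 1 to 3 higher neighbours, 2 to 4 higher border macrophage markers, and 1 to 4 pan-myeloid genes in each direction. The pan-myeloid count of 1 arose without control 3 for lower and without control 2 for higher genes.

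The summed level in stimulated over control libraries, 0.578, was 0.716 without Ms4a7 and 0.704 in CPM per kilobase of annotated exons. Ratios of shares without Ms4a7 were 1.35 for Ms4a4a, 0.638 for Ms4a6b, 1.15 for Ms4a6c and 1.05 for Ms4a6d. Per kilobase of annotated exons they were 1.52, 0.715, 1.29 and 1.18, and 0.691 for Ms4a7. No share turned its direction.

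The replicate numbers are not stated to pair the cultures. Deviations from the group means of same-numbered libraries correlated at 0.26, -0.01 and 0.18 across genes. With the number as a block, 4924 genes were called in place of 4360, and 2523 of 14618 were lower in place of 2218. Of the Ms4a genes 4 were lower, Ms4a6d (-0.27, adjusted p = 0.019, edgeR) being added. For the summed level and shares, sign changes within the 3 pairs gave an exact p of 0.25, the smallest possible.

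Depth limits Ms4a4c most, at 22 to 47 counts in stimulated libraries, and kept 14 other Ms4a genes out of the test.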
